A study of Mus musculus with 9 samples.

Results

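The genes described here encode receptors for the fast transmitters glutamate, GABA, glycine and acetylcholine. They were chosen by symbol alone, as every gene named as a subunit of an AMPA, delta, kainate or NMDA glutamate receptor (Gria, Grid, Grik, Grin), a metabotropic glutamate receptor (Grm), a GABA-A receptor (Gabr), a glycine receptor (Glra, Glrb) or a nicotinic acetylcholine receptor (Chrn). The rule found 67 of the 22322 genes in the tables. It also took in 1 gene for an interacting protein that is no receptor itself.

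The cells were mouse R1 embryonic stem cells, a line that the labels give as wild type. All were grown for 6 days in suspension without the self-renewal factor LIF, so that they formed embryoid bodies, which are aggregates that begin to differentiate. The 3 groups of 3 libraries were labelled by their hairpins: sh-ctrl is the control, sh-Pfkp targets Pfkp, the platelet-type phosphofructokinase of glycolysis, and sh-Lin41 targets Lin41, the RNA-binding ubiquitin ligase encoded by Trim71. Each target is represented by a single named hairpin, and nothing in the labels ties replicate libraries to separate cultures, so the p-values measure the spread between these libraries only. RNA was taken from whole embryoid bodies, where fewer cells of a type and less RNA per cell cannot be told apart.

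Ionotropic receptors are assemblies of several subunits around a channel, and which subunits a cell makes decides what its receptors can do. Glutamate and acetylcholine receptors of this kind admit cations and excite neurons, whereas GABA-A and glycine receptors admit chloride and inhibit most adult neurons. Metabotropic glutamate receptors act through G proteins. Embryonic stem cells are not neurons, and the aggregates still carried stem cell transcripts: all 14 pluripotency markers listed had a mean of at least 1 CPM, a gene's counts relative to the TMM-scaled library size, in at least 1 group. Of the 16 neuron markers listed, 14 had enough counts to be tested, and the list summed to 496 to 505 CPM in sh-ctrl. Dcx, which marks young migrating neurons, was 1 of the 2 under 1 CPM in every group. It was at 0 in sh-ctrl and sh-Lin41 and at 0.0171 CPM in sh-Pfkp.

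Total counts ranged from 15495194 to 20607683 per library. The targeted genes were lower under their own hairpins, with Pfkp falling from a mean of 247 to 103 CPM and Trim71 from 269 to 160. Each also differed under the other hairpin: Trim71 was at 352 CPM in sh-Pfkp (edgeR adjusted p 4.06e-15) and Pfkp at 227 CPM in sh-Lin41 (8.68e-05). CPM compares 1 gene between libraries, and the deposited FPKM values, which divide by transcript length, are used wherever levels of different genes are compared.

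Most receptor genes left some counts, but few left many. At least 1 count over the 9 libraries was found for 63 of the 67 genes (94.0%), against 18039 of all 22322 genes (80.8%). At least 10 counts were found for 42 genes (62.7%), against 69.6% of all genes. A group mean of at least 1 CPM was reached by 20 genes (29.9%), against 55.9% of all genes. Only 7 receptor genes (10.4%) reached a group mean of 1 FPKM, against 50.6% of all genes. The receptor genes were thus detected as traces more often than other genes and at substantial levels less often, a description of these libraries for which no test was run.

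Chrna6, Gabra6, Gabrr2 and Glra1 had 0 counts in all 9 libraries. A further 21 genes had 1 to 9 counts in all, and 17 had 10 to 68 counts without passing the filter on low counts. The remaining 25 genes, with 73 to 17460 counts in all, were tested. Coverage differed between receptor classes. All 7 NMDA receptor genes had at least 10 counts and 5 of them were tested, whereas 11 of 19 GABA-A receptor genes had at least 10 counts and 5 were tested. Of 11 neuronal nicotinic genes 6 were tested, of 5 kainate genes 2, of 4 AMPA genes 2, of 8 metabotropic glutamate genes 2, of 5 muscle nicotinic genes 1, of 5 glycine receptor genes 1 and of 2 delta genes 1.

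**Figure D1:**
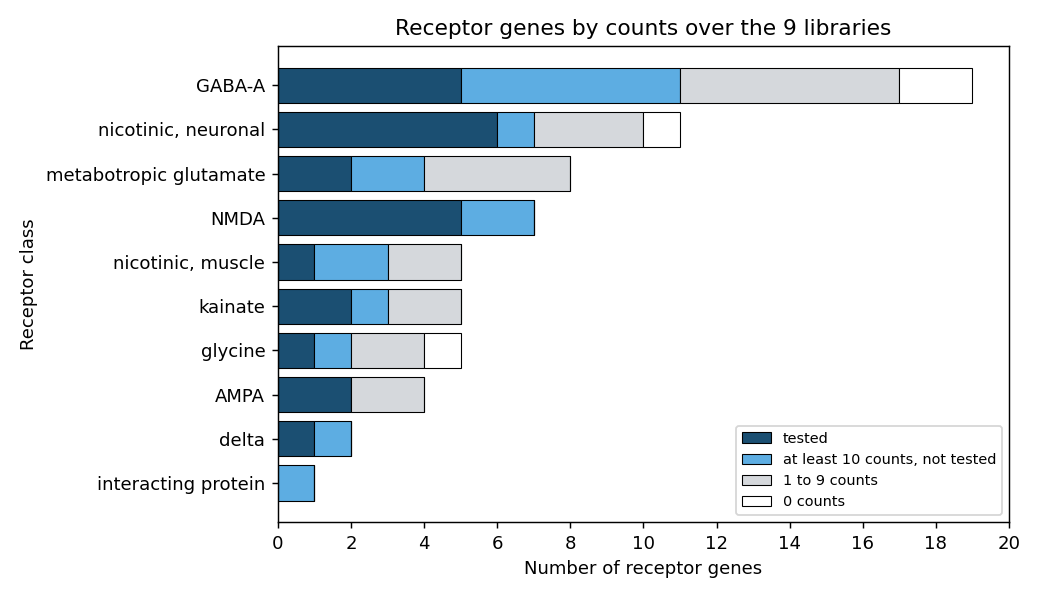
Number of receptor genes (horizontal axis) in each receptor class (vertical axis), split by the counts found over the 9 libraries. The GABA-A class is the longest bar with 19 genes, of which 5 were tested, and all 7 NMDA genes had at least 10 counts.

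The signal was carried by a handful of genes. Grik3 alone gave 17460 counts over the 9 libraries, or 58.0% of the counts of all 67 genes. Grin1 followed with 9.12%, Chrna9 with 6.99% and Grik5 with 5.48%, so that 4 genes held 79.6%. These shares are not corrected for transcript length. Summed over the 67 genes, the level lay between 175 and 181 CPM in sh-ctrl, between 173 and 175 CPM in sh-Pfkp and between 189 and 194 CPM in sh-Lin41.

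Per length, Grik3 also led, with a mean of 10.1 FPKM in sh-ctrl, 11.7 in sh-Pfkp and 13.2 in sh-Lin41. Grin1 was next in sh-ctrl with 6.71 FPKM, ahead of Chrna9 with 5.27 FPKM. In both knockdowns that order was the other way round, with Chrna9 at 7.95 FPKM in sh-Pfkp and 7.45 in sh-Lin41, and Grin1 at 2.81 and 2.95 FPKM. Grik5 and Chrna7 had control means of 3.35 and 1.78 FPKM, and Chrnb1 was the last to reach 1 FPKM, in sh-Lin41.

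Several classes were represented mostly by a single subunit. Grin1 made up 88.7% of the summed NMDA receptor FPKM in sh-ctrl, 82.1% in sh-Pfkp and 75.1% in sh-Lin41. Of the summed kainate receptor FPKM, 74.6% was Grik3 and 24.8% Grik5 in sh-ctrl. Chrna9 held 57.2% of the neuronal nicotinic sum and Glrb 92.7% of the glycine receptor sum in sh-ctrl. Chrna10, the usual partner of Chrna9 in hair cells of the inner ear, had 7 counts over all 9 libraries.

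**Figure D2:**
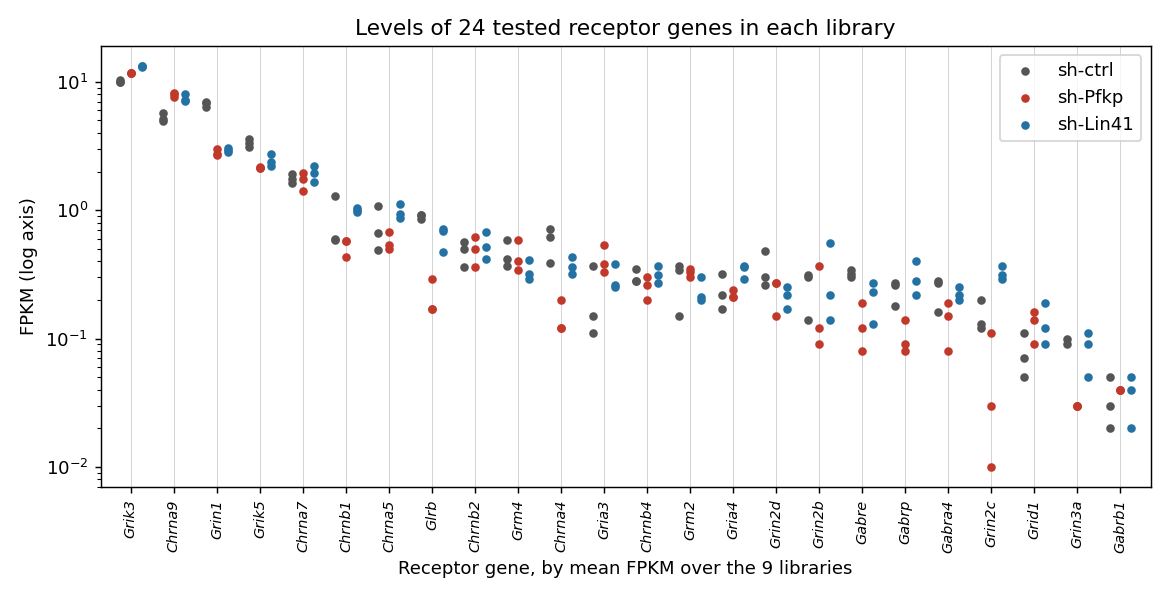
Deposited FPKM on a log axis for 24 of the 25 tested receptor genes, ordered by mean over the 9 libraries, with 1 point per library coloured by hairpin. Grik3 lies above every other gene in all 9 libraries, and 1 value at 0 (Grin3a in sh-ctrl library 1) is not drawn.

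Promoter sequences are shown for 4 of the genes that passed the test in the same direction in both knockdowns, Grik3 and Chrna9 (higher) and Grin1 and Glrb (lower), to set the CG content of genes that rose beside that of genes that fell. Each window runs from 250 bases before to 50 bases after the annotated start in RefSeq (build GRCm38.p6), is printed 5′ to 3′ on the gene's own strand, and has every CG dinucleotide in capitals. Grik3 lies at chr4:125490446-125490745 on the plus strand and Chrna9 at chr5:65966874-65967173 on the plus strand. Grin1 lies at chr2:25319138-25319437 and Glrb at chr3:80913611-80913910, both on the minus strand.
Grik3: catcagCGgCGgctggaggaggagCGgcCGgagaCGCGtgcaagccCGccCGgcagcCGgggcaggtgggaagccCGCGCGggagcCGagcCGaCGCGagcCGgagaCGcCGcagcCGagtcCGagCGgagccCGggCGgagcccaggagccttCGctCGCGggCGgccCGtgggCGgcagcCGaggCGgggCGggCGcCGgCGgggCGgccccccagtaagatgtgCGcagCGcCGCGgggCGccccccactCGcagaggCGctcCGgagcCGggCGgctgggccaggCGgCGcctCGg
Chrna9: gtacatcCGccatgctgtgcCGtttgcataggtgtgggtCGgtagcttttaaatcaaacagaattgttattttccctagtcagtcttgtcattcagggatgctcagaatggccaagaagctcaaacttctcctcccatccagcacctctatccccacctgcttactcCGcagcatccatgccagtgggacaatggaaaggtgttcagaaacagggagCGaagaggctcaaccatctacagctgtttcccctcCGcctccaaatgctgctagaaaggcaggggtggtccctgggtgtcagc
Grin1: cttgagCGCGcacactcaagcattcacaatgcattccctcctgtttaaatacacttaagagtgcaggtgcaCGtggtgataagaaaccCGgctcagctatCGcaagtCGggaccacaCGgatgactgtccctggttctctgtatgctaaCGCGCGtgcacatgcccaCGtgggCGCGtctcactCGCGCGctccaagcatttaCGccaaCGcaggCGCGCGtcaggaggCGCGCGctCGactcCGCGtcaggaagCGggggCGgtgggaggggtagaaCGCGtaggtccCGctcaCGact
Glrb: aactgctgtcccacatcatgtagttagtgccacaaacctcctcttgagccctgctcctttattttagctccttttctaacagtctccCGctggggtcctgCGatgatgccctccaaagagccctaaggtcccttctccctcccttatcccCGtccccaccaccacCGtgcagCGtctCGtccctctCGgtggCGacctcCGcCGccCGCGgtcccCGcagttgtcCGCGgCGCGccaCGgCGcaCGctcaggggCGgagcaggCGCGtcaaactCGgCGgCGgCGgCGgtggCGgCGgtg

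The Grik3 window held 50 CG dinucleotides, the Grin1 window 33, the Glrb window 30 and the Chrna9 window 6. Chrna4 and Grik5, which were also lower in both knockdowns, had 33 and 10. The median over all 32851 promoters in the RefSeq table was 7. That set spans 27025 genes and was not limited to the genes with counts here or to genes of like type. Of the 67 receptor genes, 47 had an entry, with 56 promoters in all. The median was 17 over the 21 promoters of tested receptor genes and 10 over the 19 promoters of receptor genes with under 10 counts. CpG-rich promoters were thus found both among genes that rose and among genes that fell.

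In all 5 sequence motifs were searched for on both strands of the same windows. The EGR motif GCGNGGGCG was found in 7 of the 56 receptor promoters (12.5%), Grin1 among them, and in 5.55% of all promoters. The left part of the neuron-restrictive silencer element bound by REST, TTCAGCACC, was found in 1 receptor promoter, that of Grm2, and in 0.371% of all promoters. The right part, GGACAGCGC, was found in 1 receptor promoter, that of Gria2, and in 0.405% of all promoters. The E-box CACGTG was found in 2 receptor promoters (3.57%), those of Chrna7 and Grin1, and in 7.15% of all promoters. The TATA motif TATAAA was found in 6 receptor promoters (10.7%) and in 13.6% of all promoters. A match describes these letters in this window and is no evidence of binding.

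Expression in sh-Pfkp and sh-Lin41 was compared with sh-ctrl, and the knockdowns with each other, by edgeR's quasi-likelihood test over all 13158 genes that passed the filter, with Benjamini-Hochberg adjusted p under 0.05 as the threshold. Of the 25 tested receptor genes, 13 passed in sh-Pfkp against sh-ctrl (52%), 4 higher and 9 lower, where 56.6% of all genes tested passed, 28.3% higher and 28.3% lower. In sh-Lin41 against sh-ctrl 9 passed (36%), 3 higher and 6 lower, against 54.3% of all genes, 26.9% higher and 27.3% lower. In sh-Pfkp against sh-Lin41 11 passed (44%), 1 higher and 10 lower, against 55.1% of all genes, 27.4% higher and 27.8% lower. The receptor genes therefore did not pass more often than genes at large in any of the comparisons. Passing also depends on a gene's counts, and no comparison was made with genes of like counts. Both comparisons with sh-ctrl use the same 3 control libraries.

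The typical change was larger in size than over all genes tested. The median absolute log2 fold change of the 25 genes was 0.60 in sh-Pfkp against sh-ctrl, 0.42 in sh-Lin41 against sh-ctrl and 0.49 between the knockdowns, where that of all genes tested was 0.21, 0.20 and 0.21. Most of the 25 genes had low counts, for which fold changes scatter more, and the part of this in the larger medians was not tested. The signed medians were -0.41, 0.18 and -0.14. A change of at least 2-fold was called for 8 of the 25 receptor genes in sh-Pfkp (1 higher, 7 lower). Of all genes tested, 6.51% were called at that size in that comparison. In sh-Lin41 2 receptor genes were called at that size (1 higher, 1 lower), against 4.26%. Between the knockdowns 5 were called at that size, all lower in sh-Pfkp, against 4.49%. These shares of all genes take both directions together, so the receptor split by direction has no counterpart over all genes here.

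Kainate receptors were the most abundant glutamate receptors at the transcript level. Grik3, a subunit that can form a channel by itself, was at 88.0, 91.2 and 89.0 CPM in sh-ctrl, at 108, 107 and 107 CPM in sh-Pfkp and at 117, 117 and 118 CPM in sh-Lin41. The groups did not overlap, and sh-Lin41 was highest. Relative to sh-ctrl the log2 fold change was 0.26 (SE 0.0315, adjusted p 1.76e-08) in sh-Pfkp, a 1.20-fold rise, and 0.39 (SE 0.0309, adjusted p 2.09e-12) in sh-Lin41, a 1.31-fold rise. Grik3 was also lower in sh-Pfkp than in sh-Lin41, with a log2 difference of -0.13 (SE 0.0297, adjusted p 0.000524).

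Grik5, a kainate subunit that needs a partner such as Grik3 to form a channel, moved the other way. Its libraries were at 11.7, 12.5 and 13.5 CPM in sh-ctrl, at 8.21, 8.46 and 8.26 CPM in sh-Pfkp and at 8.29, 9.02 and 10.3 CPM in sh-Lin41. Every knockdown library lay below every control library, while the knockdowns overlapped each other. Against sh-ctrl the log2 fold change was -0.60 (SE 0.103, adjusted p 1.03e-05) in sh-Pfkp and -0.45 (SE 0.100, adjusted p 0.000299) in sh-Lin41. Between the knockdowns the log2 difference was -0.14 (SE 0.106, adjusted p 0.258). With Grik3 up and Grik5 down, Grik5 made up 15.5% of the summed kainate FPKM in each knockdown, compared with 24.8% in sh-ctrl. The other kainate genes had 22 counts or fewer in every group, and Grik4 had 7, 8 and 22 counts in sh-ctrl, sh-Pfkp and sh-Lin41.

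Grin1, the subunit present in every NMDA receptor, had the smallest adjusted p of the 25 tested genes in both knockdowns and fell in each. It was at 28.0, 27.6 and 26.0 CPM in sh-ctrl, at 11.7, 11.2 and 12.2 CPM in sh-Pfkp and at 11.9, 12.2 and 11.4 CPM in sh-Lin41. The control libraries all lay above the knockdown libraries, which overlapped each other. The log2 fold change was -1.22 (SE 0.0751, adjusted p 5.24e-15) in sh-Pfkp and -1.20 (SE 0.0743, adjusted p 4.79e-15) in sh-Lin41, or 2.32-fold and 2.30-fold lower. Between the knockdowns it was -0.01 (SE 0.0835, adjusted p 0.895). An exon of Grin1 overlaps the antisense gene Grin1os by 165 bases in the GENCODE M21 annotation, and the strand setting of the counting is not given in the sources used here. Exonic overlap with another gene was found for 24 of the 67 receptor genes. Those overlapped on the opposite strand included Grm2 (by 470 bases with Gm28111), Grin2d (233 with Gm45441) and Grin2b (143 with Gm14329).

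The other tested NMDA subunits had group means of at most 0.347 FPKM. Grin2c, an NMDA subunit best known from the cerebellum, was at 0.572, 0.831 and 0.600 CPM in sh-ctrl, at 0.474, 0.0513 and 0.116 CPM in sh-Pfkp and at 1.76, 1.40 and 1.38 CPM in sh-Lin41. It was the only receptor gene called in opposite directions, lowest in sh-Pfkp and highest in sh-Lin41 with no overlap. Its log2 fold change was -1.59 (SE 0.529, adjusted p 0.0111) in sh-Pfkp and 1.18 (SE 0.357, adjusted p 0.00572) in sh-Lin41, and the difference between the knockdowns was -2.77 (SE 0.441, adjusted p 2.81e-06). The fall in sh-Pfkp lost its call without sh-ctrl library 2 (adjusted p 0.0514), without sh-Pfkp library 2 (0.0839) or without sh-Pfkp library 3 (0.0544), and without sh-Pfkp library 1 the log2 fold change was -2.91.

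Grin2b, a subunit that predominates in the embryonic brain, was at 2.80, 2.49 and 2.13 CPM in sh-ctrl, at 1.63, 1.85 and 2.09 CPM in sh-Pfkp and at 2.91, 3.52 and 2.202 CPM in sh-Lin41. Neither knockdown differed from control at the threshold, but sh-Pfkp lay below sh-Lin41 by 0.64 on the log2 scale (log2 difference -0.64, SE 0.211, adjusted p 0.0101), a call lost without sh-Lin41 library 2 (adjusted p 0.102). Grin2d, another embryonic subunit, was at 1.60, 2.56 and 1.42 CPM in sh-ctrl, at 0.842, 1.49 and 1.51 CPM in sh-Pfkp and at 1.155, 0.917 and 1.32 CPM in sh-Lin41. All sh-Lin41 libraries lay below the control libraries (log2 fold change -0.70, SE 0.289, adjusted p 0.0393). That call was lost without sh-ctrl library 2, where the log2 fold change was -0.42 and the adjusted p 0.285, and without sh-Lin41 library 1 (0.0706) or library 2 (0.144). Grin3a, a subunit that lowers calcium entry, was at 0, 0.703 and 0.655 CPM in sh-ctrl, at 0.263, 0.205 and 0.233 CPM in sh-Pfkp and at 0.402, 0.675 and 0.826 CPM in sh-Lin41. It passed only between the knockdowns (log2 difference -1.41, SE 0.599, adjusted p 0.0466), and that call was lost on leaving out any of 7 of the 9 libraries, namely sh-ctrl 2 (0.0549) or 3 (0.0523), sh-Pfkp 1 (0.0770), 2 (0.117) or 3 (0.0970), or sh-Lin41 2 (0.110) or 3 (0.163). Without sh-ctrl library 1, the one at 0, its fall in sh-Pfkp against sh-ctrl passed as well (log2 fold change -1.51, edgeR adjusted p 0.0236).

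AMPA receptors, which carry most fast excitation in the brain, were near the floor. Gria3 was at 1.14, 0.511 and 0.436 CPM in sh-ctrl, at 1.37, 1.85 and 1.75 CPM in sh-Pfkp and at 1.05, 1.01 and 1.49 CPM in sh-Lin41. The sh-Pfkp libraries all lay above the control libraries, of which library 1 was highest, and the log2 fold change was 1.23 (SE 0.331, adjusted p 0.00207), a call that limma on log2(FPKM + 1) did not make (adjusted p 0.0593). In sh-Lin41 it was 0.74 (SE 0.349, adjusted p 0.0714), which passed without sh-ctrl library 1 (0.00850). Gria4 did not pass in any comparison, with means of 0.839, 0.666 and 1.05 CPM in sh-ctrl, sh-Pfkp and sh-Lin41. Gria1 and Gria2 had under 10 counts, 8 of them in all for Gria2, the subunit that makes AMPA receptors impermeable to calcium.

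Of the delta receptors, which bind cerebellins at synapses rather than opening to glutamate, Grid1 was tested and did not pass. Its log2 fold change was 0.81 (SE 0.440, adjusted p 0.119) in sh-Pfkp and 0.80 (SE 0.437, adjusted p 0.121) in sh-Lin41. The metabotropic receptor Grm2, which lowers cyclic AMP and transmitter release, was at 0.687, 0.767 and 1.42 CPM in sh-ctrl, at 1.58, 1.69 and 1.45 CPM in sh-Pfkp and at 0.904, 0.917 and 0.881 CPM in sh-Lin41. The sh-Pfkp libraries were above all others, though only just above sh-ctrl library 3. The log2 fold change in sh-Pfkp was 0.70 (SE 0.297, adjusted p 0.0441). Leaving out sh-ctrl library 1 (adjusted p 0.192) or 2 (0.144), or sh-Pfkp library 1 (0.0834), 2 (0.113) or 3 (0.0583), ended that call, and without sh-ctrl library 3 the log2 fold change was 1.12. The sh-Pfkp libraries also exceeded those of sh-Lin41 in Grm2 (log2 difference 0.80, SE 0.293, adjusted p 0.0202), a call lost without sh-Pfkp library 2 (0.0636). Grm4, a presynaptic receptor of similar signalling, did not pass, with means of 1.67, 1.80 and 1.47 CPM in sh-ctrl, sh-Pfkp and sh-Lin41.

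**Figure D3:**
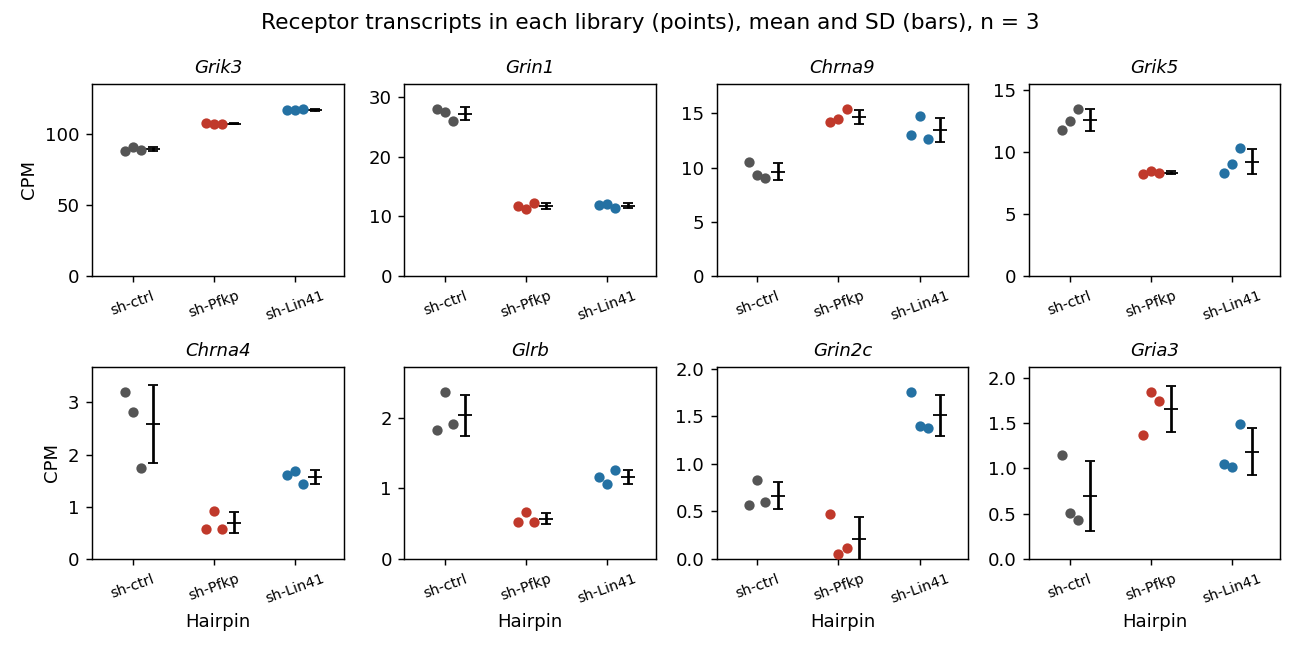
CPM of 8 receptor genes in each library (points), with the mean and SD of the 3 libraries of a group (bars), each panel on its own linear axis from 0. Grin1 lies at 26.0 to 28.0 CPM in sh-ctrl and at 11.2 to 12.2 CPM in both knockdowns, whereas Grin2c is lowest in sh-Pfkp and highest in sh-Lin41, and its lower SD bar in sh-Pfkp stops at 0.

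Among GABA-A receptor genes the called changes in sh-Pfkp were all decreases. Gabre, the epsilon subunit, was at 1.37, 1.47 and 1.255 CPM in sh-ctrl, at 0.368, 0.820 and 0.524 CPM in sh-Pfkp and at 1.155, 0.965 and 0.551 CPM in sh-Lin41. Both knockdowns lay below control without overlap. The difference passed in sh-Pfkp (log2 fold change -1.24, SE 0.353, adjusted p 0.00349) but not in sh-Lin41 (-0.60, SE 0.320, adjusted p 0.117), and the knockdowns did not differ at the threshold (-0.64, SE 0.373, adjusted p 0.146). Gabrp, the pi subunit found mostly outside the brain, was at 0.572, 0.831 and 0.873 CPM in sh-ctrl, at 0.316, 0.256 and 0.465 CPM in sh-Pfkp and at 0.904, 1.302 and 0.716 CPM in sh-Lin41. It was lowest in all sh-Pfkp libraries. Its log2 fold change was -1.13 (SE 0.441, adjusted p 0.0286) in sh-Pfkp, and sh-Pfkp lay below sh-Lin41 by more (log2 difference -1.51, SE 0.410, adjusted p 0.00233). The call against sh-ctrl was lost without sh-ctrl library 2 (0.0746) or 3 (0.103) or without sh-Pfkp library 1 (0.0744) or 2 (0.106).

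Gabra4, an alpha subunit of receptors outside synapses, was at 1.14, 0.575 and 1.09 CPM in sh-ctrl, at 0.421, 0.615 and 0.349 CPM in sh-Pfkp and at 0.904, 1.01 and 0.826 CPM in sh-Lin41. Control library 2 fell within the range of sh-Pfkp, and the sh-Pfkp libraries lay below those of sh-Lin41. The log2 fold change was -1.01 (SE 0.390, adjusted p 0.0267) against sh-ctrl and -0.97 (SE 0.383, adjusted p 0.0329) against sh-Lin41. The first call was lost without sh-ctrl library 1 (0.116) or 3 (0.104) or sh-Pfkp library 1 (0.0773) or 3 (0.0985). The second was lost without sh-Pfkp library 1 (0.0921) or 3 (0.118) or sh-Lin41 library 1 (0.0661) or 2 (0.0990). Gabra4 and its neighbour Gabrb1 share 28 bases of exon on opposite strands. Gabrb1 did not pass, with a log2 fold change of 0.35 (SE 0.455, adjusted p 0.525) in sh-Pfkp.

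Glrb, the glycine receptor beta subunit that anchors receptors to gephyrin and needs an alpha subunit to form a glycine-gated channel, fell in graded fashion. It was at 1.83, 2.37 and 1.91 CPM in sh-ctrl, at 0.526, 0.667 and 0.524 CPM in sh-Pfkp and at 1.155, 1.06 and 1.27 CPM in sh-Lin41. The groups did not overlap, with sh-Pfkp lowest and sh-Lin41 between. In log2 terms the change was -1.81 (SE 0.296, adjusted p 4.60e-06) in sh-Pfkp, 3.50-fold lower, and -0.80 (SE 0.256, adjusted p 0.00871) in sh-Lin41, 1.75-fold lower. Between the knockdowns it was -1.003 (SE 0.320, adjusted p 0.00848). The call in sh-Lin41 was lost without sh-ctrl library 2 (adjusted p 0.0513). None of the alpha subunit genes was tested: Glra1 had 0 counts in all libraries and Glra2 had 9, 7 and 3 counts in sh-ctrl, sh-Pfkp and sh-Lin41.

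Chrna9, a nicotinic subunit that can form a channel by itself and is known from cochlear hair cells, was the most abundant acetylcholine receptor gene and rose in both knockdowns. It was at 10.5, 9.33 and 9.001 CPM in sh-ctrl, at 14.2, 14.5 and 15.4 CPM in sh-Pfkp and at 13.0, 14.7 and 12.6 CPM in sh-Lin41. Every knockdown library lay above every control library, and the knockdowns overlapped. Its rise on the log2 scale was 0.61 (SE 0.0944, adjusted p 1.75e-06) in sh-Pfkp and 0.49 (SE 0.0949, adjusted p 5.91e-05) in sh-Lin41. Between the knockdowns it was 0.12 (SE 0.0876, adjusted p 0.234).

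Chrna4, which with Chrnb2 forms the main high-affinity nicotine receptor of the brain, fell. It was at 3.20, 2.81 and 1.75 CPM in sh-ctrl, at 0.579, 0.923 and 0.582 CPM in sh-Pfkp and at 1.61, 1.69 and 1.43 CPM in sh-Lin41. The groups did not overlap, but sh-ctrl library 3 was only just above the highest sh-Lin41 library. The log2 fold change was -1.87 (SE 0.288, adjusted p 1.71e-06) in sh-Pfkp and -0.70 (SE 0.245, adjusted p 0.0159) in sh-Lin41, and sh-Pfkp lay below sh-Lin41 (log2 difference -1.17, SE 0.307, adjusted p 0.00171). The call in sh-Lin41 was lost without sh-ctrl library 1 (0.129) or 2 (0.0591) or without sh-Lin41 library 3 (0.0544). Its partner Chrnb2 did not pass, with means of 2.24, 2.40 and 2.61 CPM in sh-ctrl, sh-Pfkp and sh-Lin41, and its exons overlap those of Adar on the opposite strand by 1014 bases.

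Chrna7, which forms calcium-permeable receptors by itself, was close to level. Its libraries were at 3.38, 3.96 and 3.60 CPM in sh-ctrl, at 4.16, 2.97 and 3.72 CPM in sh-Pfkp and at 3.41, 4.05 and 4.51 CPM in sh-Lin41. The groups overlapped, and the log2 fold change was -0.01 (SE 0.169, adjusted p 0.963) in sh-Pfkp and 0.13 (SE 0.165, adjusted p 0.526) in sh-Lin41. Chrnb4 did not pass in any comparison, with means of 1.12, 0.962 and 1.18 CPM in sh-ctrl, sh-Pfkp and sh-Lin41.

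Chrna5, an accessory subunit, was at 1.03, 1.41 and 2.07 CPM in sh-ctrl, at 1.21, 1.28 and 1.11 CPM in sh-Pfkp and at 1.76, 2.32 and 1.98 CPM in sh-Lin41. The control libraries spread across both knockdowns, and only the difference between the knockdowns passed (log2 difference -0.75, SE 0.259, adjusted p 0.0152). That call was lost without sh-Pfkp library 3 (0.0522) or sh-Lin41 library 2 (0.0800), and without sh-ctrl library 3 the rise in sh-Lin41 over control passed as well (0.0355). Chrnb1, the beta subunit of the receptor at the nerve-muscle junction, was at 1.26, 1.28 and 2.73 CPM in sh-ctrl, at 0.948, 1.28 and 1.28 CPM in sh-Pfkp and at 2.16, 2.22 and 2.04 CPM in sh-Lin41. Control library 3 stood above the other 8 libraries, and sh-Pfkp lay below sh-Lin41 (log2 difference -0.87, SE 0.272, adjusted p 0.00736). Its fall in sh-Pfkp against sh-ctrl (adjusted p 0.0727) passed without sh-ctrl library 1 (0.0269) or 2 (0.0351), and its rise in sh-Lin41 passed without sh-ctrl library 3 (0.0257).

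Over both comparisons with sh-ctrl, 14 of the 25 tested genes passed at least once, where 74.8% of all genes tested did. Grik3 and Chrna9 were higher in both knockdowns, and Grin1, Grik5, Glrb and Chrna4 were lower in both. For Chrna9, Grin1 and Grik5 the knockdowns did not differ at the threshold, which does not show that they were equal. Glrb and Chrna4 were lower in sh-Pfkp than in sh-Lin41, and Grik3 was highest in sh-Lin41. A further 4 genes, Grin2b, Grin3a, Chrna5 and Chrnb1, passed between the knockdowns only. The remaining 7 tested genes passed in no comparison, namely Chrna7, Chrnb2, Chrnb4, Grm4, Gria4, Grid1 and Gabrb1.

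**Figure D4:**
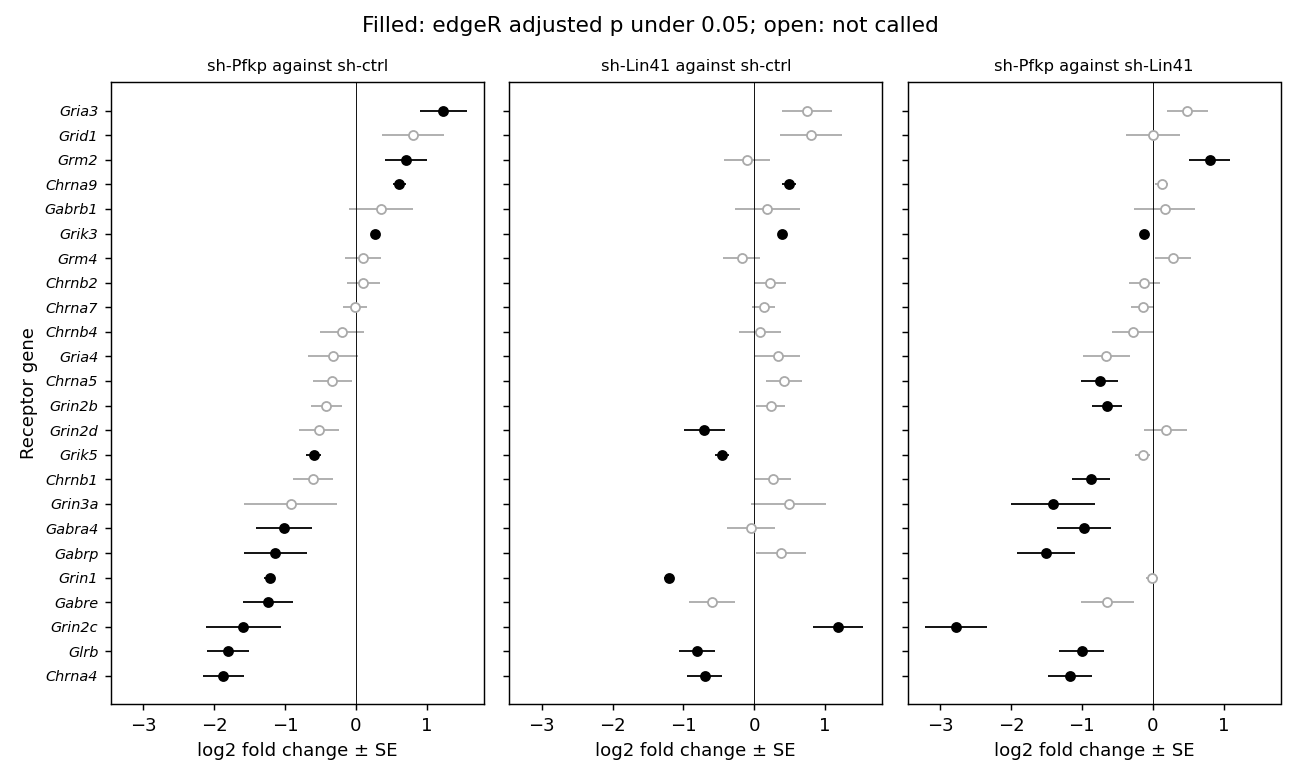
log2 fold change with its SE for 24 of the 25 tested receptor genes in the 3 comparisons, filled where the edgeR adjusted p was under 0.05 and open otherwise. Grin1 sits at -1.22 and -1.20 against sh-ctrl and at -0.01 between the knockdowns, whereas Grin2c sits at -1.59, 1.18 and -2.77.

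The 17 genes with 10 to 68 counts in all did not pass the filter of the main test, and those described here are given as sums of counts over the 3 libraries of a group. Grin2a, the NMDA subunit of the mature brain, had 7 counts in sh-ctrl, 37 in sh-Pfkp and 15 in sh-Lin41. Single libraries held 2, 2 and 3 counts in sh-ctrl, 12, 10 and 15 in sh-Pfkp and 4, 6 and 5 in sh-Lin41, so the groups did not overlap. The ratio of sh-Pfkp to sh-ctrl was 4.88, with an exact 95% interval of 2.15 to 13.0 that covers counting error only.

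In a fit without the filter on low counts, Grin2a passed in sh-Pfkp against sh-ctrl (log2 fold change 2.24, SE 0.652, edgeR adjusted p 0.00193). Gabrr3, a rho subunit known from the retina, had 3, 7 and 19 counts and passed in that fit in sh-Lin41 (2.35, SE 0.966, adjusted p 0.0391). Grm6, the glutamate receptor of retinal bipolar cells, had 1, 11 and 0 counts and passed between the knockdowns (adjusted p 0.00998). Its 11 counts came as 5, 3 and 3 in the sh-Pfkp libraries.

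The authors' deposited table, which compares each knockdown with control, gave an FDR under 0.05 for 11 receptor genes in sh-Pfkp and 6 in sh-Lin41. Those that also had an absolute log2 ratio above 1, a cutoff set here, were 6 in sh-Pfkp and 2 in sh-Lin41. In the authors' deposited table for sh-Pfkp these included Grin2a (2.66), listed higher, and Glrb (-2.09), Chrna4 (-1.97), Gabre (-1.30) and Grin1 (-1.25), listed lower. For sh-Lin41 the authors' deposited table listed Grin1 (-1.19) and Grin2c (1.11). Gabrr3, which passed in the fit without the filter, had an FDR of 0.0895 for sh-Lin41 in the authors' deposited table.

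The genes around the receptors were followed in lists. Their counts are to be read against the shares of all genes tested that passed, which were 28.3% higher and 28.3% lower in sh-Pfkp, 26.9% and 27.3% in sh-Lin41, and 27.4% and 27.8% between the knockdowns. Of 32 genes for auxiliary and scaffold proteins of glutamate receptors 21 were tested, of which 2 were higher and 12 lower in sh-Pfkp and 1 was higher and 14 lower in sh-Lin41. Their median log2 fold change was -0.39 in sh-Pfkp and -0.42 in sh-Lin41, where that of all genes tested was -0.00 and 0.00. Cbln1, a cerebellin that bridges delta receptors to presynaptic neurexins, had means of 13.0, 4.59 and 8.33 CPM in sh-ctrl, sh-Pfkp and sh-Lin41. Homer1, a scaffold that ties metabotropic receptors to calcium stores, had means of 63.9, 46.1 and 47.0 CPM in the same order, and both differences from sh-ctrl passed. Between the knockdowns 5 genes of the list were higher and 7 lower.

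Of 12 genes for scaffold and trafficking of GABA and glycine receptors 10 were tested, with 3 higher and 5 lower in sh-Pfkp, 4 and 5 in sh-Lin41, and 2 and 4 between the knockdowns. Gphn, the scaffold gephyrin to which Glrb binds, had means of 20.01, 17.6 and 19.6 CPM. Gabarapl2, a trafficking and autophagy protein, rose in both knockdowns, from 129 to 172 and 169 CPM. Of 11 genes for nicotinic receptor assembly and clustering 6 were tested, with 2 higher and 2 lower in sh-Pfkp, 1 and 0 in sh-Lin41, and 1 and 3 between the knockdowns. Ric3, a chaperone of nicotinic receptors, rose from 11.2 to 15.3 CPM in sh-Pfkp, and Lrp4, the agrin receptor of muscle, fell from 14.2 to 9.15 CPM.

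Of 7 metabotropic GABA and acetylcholine receptors that the rule does not take in, Gabbr1 and Chrm4 were tested. Gabbr1, a GABA-B receptor subunit, had means of 97.2, 99.2 and 115 CPM in sh-ctrl, sh-Pfkp and sh-Lin41 and rose in sh-Lin41 (log2 fold change 0.25, SE 0.0315). Chrm4, a muscarinic receptor, fell in both, from 5.18 to 2.87 and 3.14 CPM. Of 18 genes for transmitter synthesis and vesicular loading 10 were tested, with 3 higher and 6 lower in sh-Pfkp, 2 and 6 in sh-Lin41, and 4 and 5 between the knockdowns. Slc17a7, which loads glutamate into vesicles, fell from 4.97 to 1.22 CPM in sh-Pfkp (log2 fold change -2.03, SE 0.207). Of 11 uptake transporters 4 were tested, with 0 higher and 3 lower in sh-Pfkp, 1 and 1 in sh-Lin41, and 1 and 3 between the knockdowns. Slc1a3, a glutamate transporter of glia, fell from 23.2 to 20.2 CPM in sh-Pfkp and to 13.996 CPM in sh-Lin41. All 11 genes of the REST corepressor list, which restrains neuronal genes in other cells, were tested, with 4 higher and 5 lower in sh-Pfkp, 5 and 5 in sh-Lin41, and 3 and 4 between the knockdowns. Rcor2, a corepressor subunit, fell from 236 to 185 CPM in sh-Pfkp.

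Markers of cell types that embryoid bodies can hold moved with the groups as well. Over all genes tested 56.6% passed in sh-Pfkp, 54.3% in sh-Lin41 and 55.1% between the knockdowns. The summed level of the 16 neuron markers was 496 to 505 CPM in sh-ctrl, 620.0 to 640 CPM in sh-Pfkp and 466 to 471 CPM in sh-Lin41. Of the 14 tested, 5 were higher and 4 lower in sh-Pfkp, 4 and 6 in sh-Lin41, and 5 and 3 between the knockdowns. Stmn2 had means of 257, 369 and 268 CPM, and Elavl3 of 44.3, 15.3 and 21.3 CPM, so the list had no common direction. Rbfox3, which marks mature neurons, was under 1 CPM in every group. The 11 neural progenitor markers summed to 68.9 to 71.99 CPM in sh-ctrl, 67.0 to 67.9 in sh-Pfkp and 72.9 to 74.0 in sh-Lin41, with 2 of 5 tested higher and 1 lower against sh-ctrl in each knockdown, the lower one being Msi1 (35.1, 16.2 and 27.8 CPM). The 8 glia markers summed to 11.4 to 14.9, 7.02 to 7.56 and 9.58 to 11.3 CPM in the same order, with 0 of 3 higher and 1, the myelin gene Mbp, lower in each (5.45, 1.96 and 2.21 CPM). The 14 pluripotency markers summed to 5471 to 5561, 5094 to 5172 and 6424 to 6455 CPM, with 8 higher and 6 lower in sh-Pfkp and 9 higher and 2 lower in sh-Lin41. Among them Tdgf1, a NODAL co-receptor, had means of 984, 551 and 1009.8 CPM.

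Markers of other tissues are given in the same order of groups. The 10 skeletal muscle markers summed to 105 to 115 CPM in sh-ctrl, 186 to 190 in sh-Pfkp and 102 to 108 in sh-Lin41, of which most was Ttn, while Myod1 and Myog, which define muscle, were under 0.1 CPM in every group. Of the 3 tested, 1 was higher and 1 lower in sh-Pfkp, and 0 and 1 in sh-Lin41. Des was the lower one in both (log2 fold change -0.60 in sh-Pfkp and -0.39 in sh-Lin41). Fibroblast markers summed to 13.3 to 14.4, 21.9 to 24.7 and 9.17 to 10.8 CPM, with 4 of 6 tested higher and 2 lower in sh-Pfkp and 1 and 1 in sh-Lin41. Within that sum the collagen genes changed far more, with 1, 283 and 10 counts for Col1a2 and 2, 292 and 2 for Col3a1 in sh-ctrl, sh-Pfkp and sh-Lin41. Dcn went from 0 counts in sh-ctrl to 52 in sh-Pfkp, while Pdgfrb fell from 8.28 to 2.57 CPM and Thy1 from 3.70 to 1.85 CPM. The median log2 fold change of the 6 tested in sh-Pfkp was 4.31. Cardiomyocyte markers summed to 12.7 to 14.1, 20.7 to 21.003 and 12.7 to 14.8 CPM, with 2 of 4 higher and 1 lower in sh-Pfkp and 1 and 1 in sh-Lin41, Ryr2 being higher in both (7.62, 15.2 and 10.03 CPM). Tnni3 was the lower one in both (1.78, 0.910 and 0.817 CPM). Mesoderm markers summed to 16.9 to 18.0, 14.8 to 15.9 and 11.8 to 12.3 CPM, with 2 of 4 higher and 2 lower in sh-Pfkp and 0 and 1 in sh-Lin41, Evx1 being higher in sh-Pfkp (0.558 to 2.39 CPM). Eomes was lower in both knockdowns (log2 fold change -0.49 in sh-Pfkp and -0.67 in sh-Lin41). The 9 endoderm markers summed to at most 7.99 CPM in any library, with 0 of 4 tested higher and 1, Gata4, lower in sh-Pfkp and none called in sh-Lin41. The 7 trophoblast markers summed to at most 3.49 CPM, and both of those tested, Ascl2 and Hand1, were lower in each knockdown. The part of these markers in the receptor changes was not tested.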

How the data were processed

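Embryoid bodies were profiled by RNA-seq in 9 libraries, 3 per hairpin. Tools listed in the submitters' processing notes are RSEM, StringTie 1.3.1, HISAT2, Bowtie2 2.2.8 and fastp 0.18.0. For build, annotation and strand setting, what was used is not given in the sources used here. The deposited counts per gene are whole numbers in 1 column per library, per the file headers, and since RSEM is named they may be estimates that the authors rounded. The authors' deposited FPKM per library stood beside them, and the authors' tables also hold a log2 ratio and a p-value with its FDR. Both tables held the same control values, and a single fit covered all 9 libraries.

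The counts were scaled by TMM, filtered with filterByExpr (minimum count 10) and tested with edgeR 4.0.16 in R 4.3.3, with hairpin as the only term, and p-values were adjusted over all 13158 genes. Rows without a gene name held under 0.001% of the counts and were not removed before the filter. The script was tested on simulated data with known changes. Alternatives were DESeq2 1.42.0, other scalings and filters, limma 3.58.1 on log2(FPKM + 1), 6-library fits, a replicate block and leaving out each library. Intervals on count ratios are exact at 95% and cover counting error only.

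Some receptor and list genes are not reported by name here. With that exception, the genes named are all those called in any comparison, all with a group mean of at least 1 CPM, the leading gene of each receptor class by FPKM and, from each list, some of the up to 3 called genes with the smallest adjusted p. Gphn, some marker and transmitter genes, and the untested receptor genes given with their counts fall outside that rule and were chosen after their values were seen. The members and the 17 lists were chosen with earlier results of these data known. Overlapping exons were read from GENCODE M21, promoters from the RefSeq table.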

Additional observations from a re-analysis of the deposited data

How the results depend on the processing

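All 33 called receptor changes kept their direction in every alternative that gave a value, and 20 were called in each of these. A value was given for 28 of the 33 with the 1 CPM filter and for 32 in the 6-library fits. The counts of receptor genes called moved as follows. With limma on log2(FPKM + 1), 8 were called in sh-Pfkp against sh-ctrl (2 higher) and 7 between the knockdowns (0 higher). Between the knockdowns DESeq2 called 0 higher in sh-Pfkp, against 1 in the main result, and a fit without the filter on low counts called 3. Leaving out 1 library gave 10 to 15 genes in sh-Pfkp against sh-ctrl (3 to 6 higher, 7 to 10 lower), 6 to 11 in sh-Lin41 against sh-ctrl (3 to 5 higher, 3 to 6 lower) and 8 to 12 between the knockdowns (1 to 2 higher, 6 to 10 lower). DESeq2 ended 7 calls: Gabra4, Gabrp and Grm2 in sh-Pfkp (adjusted p 0.0649, 0.0615 and 0.0984), Grin2d in sh-Lin41 (0.0790), and Gabra4, Grin3a and Grm2 between the knockdowns (0.0795, 0.0805 and 0.0545). Limma ended 11: those 7 (0.147, 0.0619, 0.623, 0.136, 0.207, 0.316 and 0.290, in that order), Gria3 and Grin2c in sh-Pfkp (0.0593 and 0.0946), Chrna4 in sh-Lin41 (0.0739) and Grin2b between the knockdowns (0.446). Upper-quartile scaling ended that of Grm2 in sh-Pfkp (0.0571). The cause was not tested. With detection set at a group mean of 0.1 FPKM, 26 genes were detected, against 42 at 10 counts. Replicate numbers were not taken as pairing, since same-numbered libraries did not deviate together in every pair (r from -0.0830 to 0.125). With the number as a replicate block, 13, 9 and 11 genes were called and 0 calls were lost. Leaving a group with 2 libraries rests on the spread pooled over all groups. Counts limit most genes here: 42 of 67 did not pass the filter on low counts.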

Other observations

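Genes for making and loading the transmitters spanned a wide range. The 18 listed summed to 1352 to 1385 CPM in sh-ctrl, and 8 of them were under 1 CPM in every group. Chat, which makes acetylcholine, was near the floor throughout, at 0.0563 CPM in sh-ctrl and at 0 in both knockdowns. Slc17a6, a vesicular glutamate transporter, was also near the floor, at 0.0546 CPM in sh-ctrl and at 0 in both knockdowns. Slc17a7, another one, had means of 4.97, 1.22 and 2.89 CPM in sh-ctrl, sh-Pfkp and sh-Lin41. Gad1, which makes GABA, had means of 1.60, 1.06 and 0.475 CPM in sh-ctrl, sh-Pfkp and sh-Lin41, and Slc32a1, which loads GABA and glycine into vesicles, of 0.287, 0.0540 and 0.133 CPM.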
